A study of Mus musculus with 5 samples.

Results

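Occupancy of the histone variant H2A.Z and of its chaperone ANP32E was examined at 10 mouse genes for nuclear-encoded subunits of cytochrome c oxidase, among 17548 genes listed in the 2 deposited tables. The set held 3 muscle isoforms (Cox6a2, Cox7a1 and Cox8b) and 7 other genes (Cox4i1, Cox4i2, Cox5a, Cox5b, Cox6a1, Cox7a2 and Cox8a). Every region that listed 1 of these genes was taken, which gave 18 of the 31098 H2A.Z regions and 8 of the 8444 ANP32E regions. The genes were chosen with their average and peak signals in these same libraries known, so all values below are descriptions and carry no test. Whole hearts came from male C57BL/6 mice aged 12 weeks, with a sham operation (normal heart) or 4 days after transaortic coarctation (TAC, hypertrophied heart), a narrowing of the aorta that puts the left ventricle under pressure. Each of 4 libraries was 1 combination of antibody (anti-H2A.Z or anti-ANP32e) and operation, and the fifth was an input from pooled hearts. The labels do not say how many hearts went into a ChIP library, and no group had a replicate.

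Cytochrome c oxidase, complex IV, passes electrons from cytochrome c to oxygen at the end of the mitochondrial respiratory chain and pumps protons as it does so. Its catalytic core is encoded by mitochondrial DNA, and the smaller nuclear-encoded subunits around it regulate, assemble and stabilise the enzyme. Several of these exist as a muscle or heart form and a form made in most tissues: Cox6a2 beside Cox6a1, Cox7a1 beside Cox7a2, and Cox8b beside Cox8a. Cox4i1 encodes the general form of the COX4 subunit and Cox4i2 a form best known from lung and oxygen-sensing cells, so that Cox4i2 is neither a muscle isoform nor ubiquitous. Cox5a and Cox5b encode separate subunits and are not isoforms of each other. H2A.Z replaces histone H2A in nucleosomes flanking the start of many genes, mostly those with CpG islands, and ANP32E removes H2A.Z from nucleosomes.

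Each deposited region had 1 average and 1 peak signal per library, in units whose scaling for depth is not stated, so that levels were compared within an antibody only. Over all regions the median log2 ratio of TAC to sham was 0.01 for H2A.Z and -0.26 for ANP32E. The ANP32E table thus had lower values in TAC as a whole, with 7024 regions called in sham and 4220 in TAC. Promoter occupancy does not measure expression, so the marker counts below do not measure which cell types were present. By exact symbol, 53.1% of RefSeq protein-coding genes had an H2A.Z promoter region and 21.7% an ANP32E promoter region. H2A.Z promoter regions were listed for 6 of 10 cardiomyocyte markers (not for Myh6, Actn2, Ryr2 and Ttn), 4 of 6 pericyte and smooth muscle, 4 of 4 endothelial, 1 of 4 hepatocyte and 1 of 4 neuron markers. ANP32E promoter regions were listed for 3, 0, 2, 0 and 0 of the same markers. The 3 were Gata4, Myh6 and Ttn, so that Myh6 and Ttn had ANP32E without a listed H2A.Z promoter region. In whole hearts a lower signal can come from fewer cells with the protein at a site or from less of it per cell, which cannot be told apart.

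The sequence just before the gene start differed between the isoforms. The RefSeq table (build GRCm38.p6) held a promoter for 7 of the 10 genes and none for Cox4i1, Cox4i2 and Cox6a2. The 250 bases upstream of the start are printed 5′ to 3′ for both complete muscle and general pairs, because they differ in CpG content, with CpG dinucleotides in capitals. The island counts given further on are the deposited ones over whole merged regions, not counts in these windows.
Cox7a1, chr7:30183921-30184170, plus strand: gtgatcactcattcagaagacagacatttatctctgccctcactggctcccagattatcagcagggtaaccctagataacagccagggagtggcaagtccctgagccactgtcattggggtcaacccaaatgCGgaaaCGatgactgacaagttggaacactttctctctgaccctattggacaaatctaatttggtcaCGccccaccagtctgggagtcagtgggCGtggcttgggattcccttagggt
Cox7a2, chr9:79759854-79760103, minus strand: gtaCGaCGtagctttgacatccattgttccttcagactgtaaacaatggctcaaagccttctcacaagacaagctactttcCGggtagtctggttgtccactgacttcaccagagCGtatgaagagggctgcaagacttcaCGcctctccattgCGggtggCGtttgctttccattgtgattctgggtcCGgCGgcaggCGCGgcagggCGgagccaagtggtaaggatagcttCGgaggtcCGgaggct
Cox8b, chr7:140900447-140900696, minus strand: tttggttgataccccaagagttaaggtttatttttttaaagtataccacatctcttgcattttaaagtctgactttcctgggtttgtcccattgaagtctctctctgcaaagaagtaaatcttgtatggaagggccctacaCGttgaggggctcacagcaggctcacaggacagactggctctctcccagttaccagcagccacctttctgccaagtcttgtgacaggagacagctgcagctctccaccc
Cox8a, chr19:7217617-7217866, minus strand: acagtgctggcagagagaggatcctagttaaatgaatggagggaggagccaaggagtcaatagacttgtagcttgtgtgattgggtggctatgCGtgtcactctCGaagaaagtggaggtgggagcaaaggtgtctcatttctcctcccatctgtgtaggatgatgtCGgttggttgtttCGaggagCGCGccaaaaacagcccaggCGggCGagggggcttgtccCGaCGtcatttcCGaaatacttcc

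The muscle promoters held 4 CpG dinucleotides at Cox7a1 and 1 at Cox8b. Their general partners held 14 at Cox7a2 and 11 at Cox8a, and Cox5b, Cox5a and Cox6a1 held 22, 26 and 26. The median over 32841 mouse promoter windows of this length was 6. The ratio of observed to expected CpG was 0.244 at Cox7a1 and 0.0726 at Cox8b, against 0.751 at Cox7a2 and 0.676 at Cox8a. Both strands were searched for the E-box CANNTG, the TATA box TATAAA, the ETS core CCGGAAG, the ERR half-site AAGGTCA and MEF2. One E-box lay in each of the Cox5b, Cox7a1, Cox7a2, Cox8a and Cox8b windows, and 66.2% of all windows held at least 1. Cox6a1 held 1 match to CCGGAAG, which 6.91% of all windows held. None of the 7 windows matched the other 3 motifs searched.

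All 10 genes had an H2A.Z region at the promoter, that is, a region centred within 1000 bp of the listed gene start or overlapping it. By exact symbol, 53.1% of RefSeq protein-coding genes had one. A CpG island lay in the region of 6 genes (Cox4i1, Cox5a, Cox5b, Cox6a1, Cox7a2 and Cox8a) and in none of the 3 muscle isoforms, nor at Cox4i2. Among all H2A.Z promoters 84.2% held an island. The region was called in both libraries for 8 genes, against 96.2% of all H2A.Z promoters. The exceptions were Cox6a2, called in sham only, and Cox4i2, called in TAC only.

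The regions were not placed alike around the start. The Cox7a1 region (mm10 chromosome 7, 30182487 to 30185696) reached 1684 bp upstream and 1525 bp downstream of it. That of Cox6a2 (chromosome 7, 128206243 to 128208773) lay almost wholly upstream, with 2407 bp before the start and 123 bp after it. That of Cox8b (chromosome 7, 140899248 to 140904295) also lay mostly upstream, with 3849 bp before and 1198 bp after. The Cox4i2 region (chromosome 2, 152752429 to 152758141) lay mostly inside the gene, with 1487 bp before and 4225 bp after. In these last 3 genes the region's centre was 1142, 1325 and 1112 bp from the listed start, so that they counted as promoters only because the region overlapped it. The nearest region left outside the rule was centred 7407 bp upstream of Cox5b. The table's gene starts lay within 3 bp of RefSeq for 8 genes, and 65 and 257 bp away for Cox4i1 and Cox4i2.

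**Figure D1:**
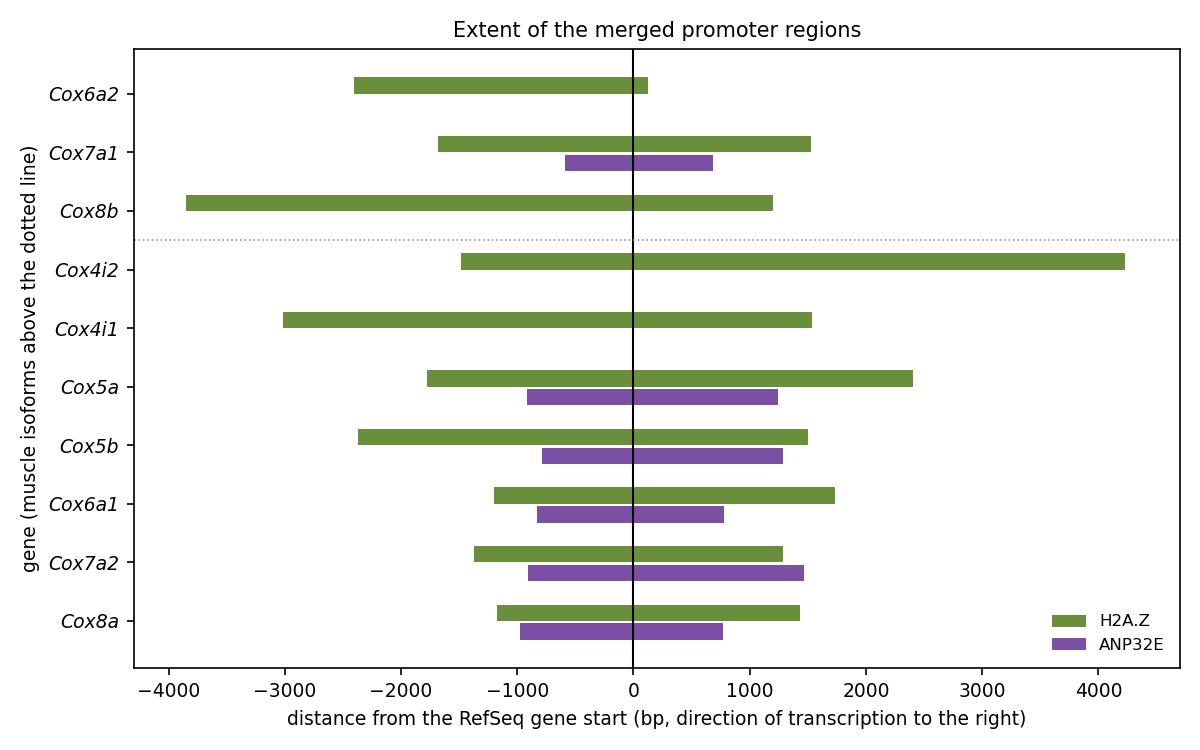
Extent of the merged H2A.Z (green) and ANP32E (purple) promoter regions around the RefSeq gene start of each gene, in bp along the direction of transcription. The Cox6a2 H2A.Z region ends 123 bp after the start, whereas the Cox7a1 region reaches 1525 bp past it, and Cox6a2, Cox8b, Cox4i2 and Cox4i1 have no ANP32E region.

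At the muscle isoforms, H2A.Z was low at Cox6a2 and Cox7a1 and moderate at Cox8b. The average signal at Cox6a2, the heart and skeletal muscle form of COX6A, was 12.7 in sham and 7.92 in TAC. At Cox7a1, the muscle form of COX7A, it was 12.9 in sham and 17.4 in TAC. At Cox8b, the muscle form of COX8, it was 26.5 in sham and 20.2 in TAC. Cox8b thus stood inside the range of the 6 island genes in sham and below it in TAC. Peak signals were 28 and 15 at Cox6a2, 51 and 68 at Cox7a1, and 53 and 38 at Cox8b. On the peak scale none of the 3 reached the weakest of the 6 island promoters in either library.

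Among the 6 genes with an island, the average H2A.Z signal ran from 22.2 to 36.7 in sham and from 23.0 to 39.0 in TAC. The order in sham was Cox6a1 (36.7), Cox7a2 (35.3), Cox5a (33.9), Cox5b (28.6), Cox4i1 (25.6) and Cox8a (22.2). In TAC it was Cox7a2 (39.0), Cox6a1 (37.8), Cox5a (34.5), Cox5b (31.3), Cox4i1 (27.7) and Cox8a (23.0). Without replicates no spread can be set beside these steps, and neighbours in the order cannot be ranked firmly. Peak signals gave another order, with Cox4i1 first in sham (128) and level with Cox5a in TAC (151). In sham Cox5a had 124, and Cox5b had 101 in sham and 137 in TAC. The Cox4i1 region (chromosome 8, 120665211 to 120669765) also served the divergent gene Emc8, which encodes a subunit of a membrane protein insertion complex of the endoplasmic reticulum, so its signal belongs to both genes. Cox4i2, which had no island, had the lowest average of the 10 in sham (11.5) and 15.0 in TAC, with peaks of 25 and 32.

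**Figure D2:**
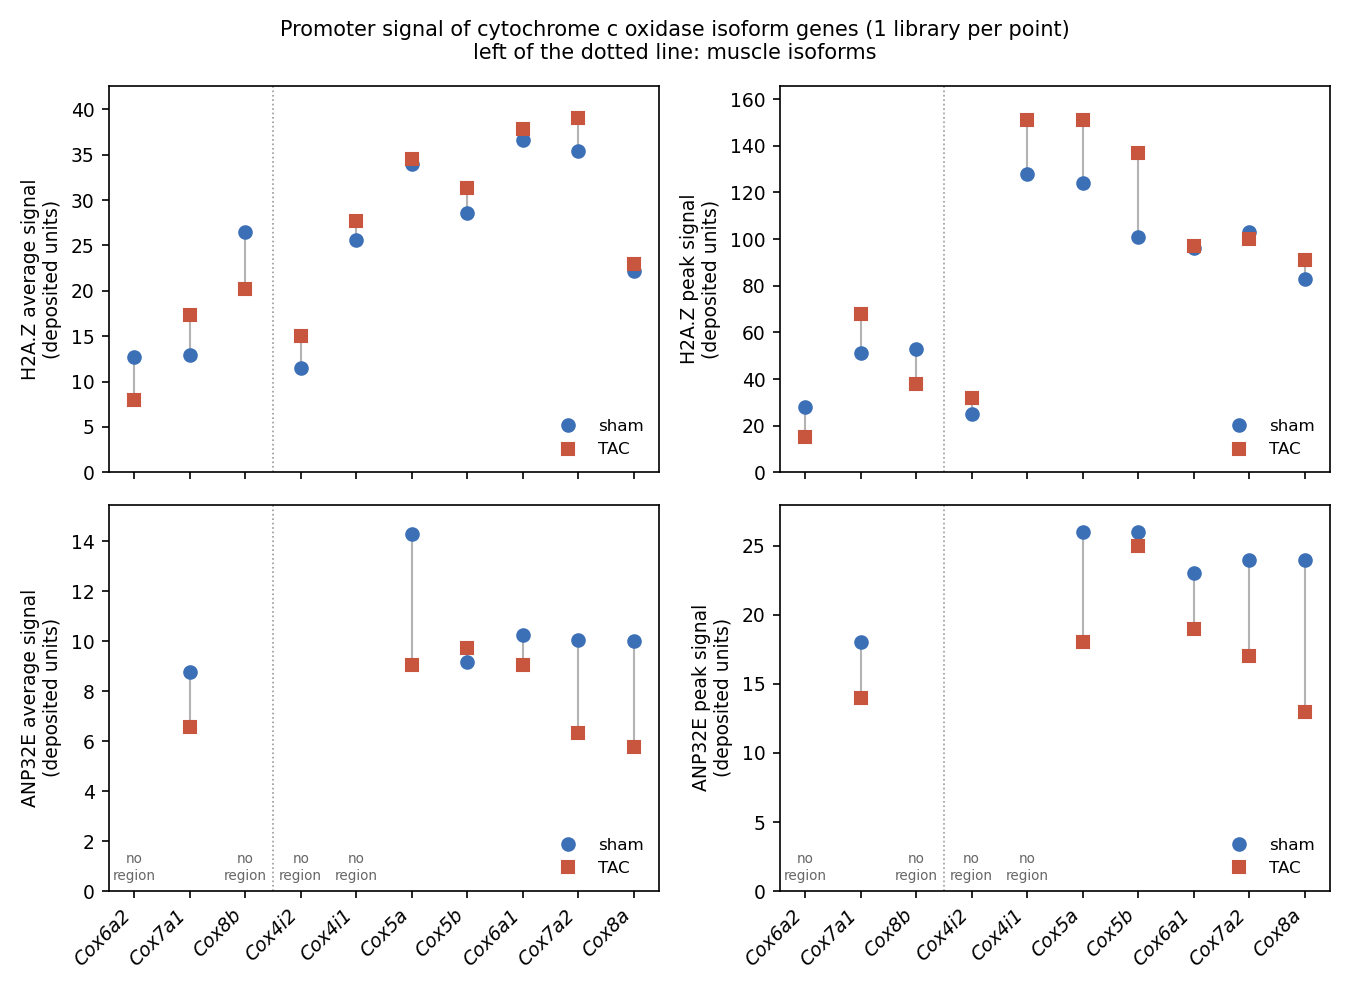
Average (left) and peak (right) signal in deposited units at each gene's promoter region for H2A.Z (top) and ANP32E (bottom); each point is 1 library, circles are sham and squares TAC. H2A.Z peak signals of the 3 muscle isoforms and Cox4i2 lie between 15 and 68, and those of the 6 island genes between 83 and 151.

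Peak height relative to the average separated the promoters in another way. At Cox6a2, Cox8b and Cox4i2 the sham peak was 2.21, 2.00 and 2.18 times the regional average. At Cox7a1 it was 3.95 times, inside the range of 2.62 to 5.0 at the 6 island genes. In TAC these ratios were 1.89 at Cox6a2, 1.88 at Cox8b, 2.14 at Cox4i2 and 3.91 at Cox7a1, with 2.56 to 5.45 at the island genes. Among the muscle isoforms Cox7a1 was thus the one with a peaked H2A.Z region centred near its start. Region length enters the average, and it was 2530 bp at Cox6a2, 3209 bp at Cox7a1 and 5047 bp at Cox8b, against 2608 to 4554 bp at the island genes.

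Each level was then placed among all promoters of its own class. The 2178 H2A.Z promoters without an island had a median average signal of 18.2 in sham and 18.6 in TAC, and the 11585 with an island had 29.2 and 29.7. Within the class without an island, Cox6a2 stood at percentile 19.6 in sham and 0.80 in TAC. Cox7a1 stood at 21.0 and 43.4, Cox4i2 at 13.0 and 30.4, and Cox8b at 84.7 and 57.1. Within the class with an island, Cox8a was lowest (20.5 and 20.3), and Cox6a1 (80.4 and 81.8) and Cox7a2 (76.5 and 84.7) were highest. The TAC level of Cox6a2, at a region not called in TAC, had the lowest place of the set.

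**Figure D3:**
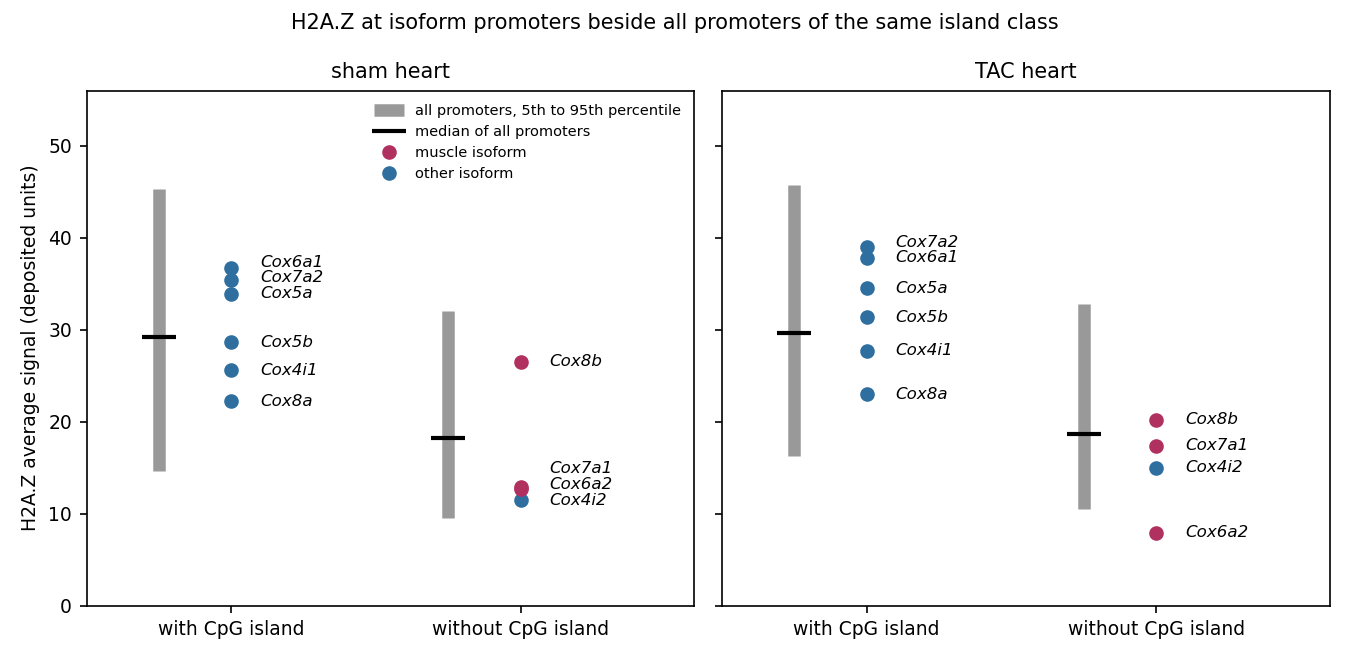
H2A.Z average signal (deposited units) in sham (left) and TAC (right), with genes grouped by whether the promoter region holds a CpG island; grey bars span the 5th to 95th percentile of all promoters of the class and black dashes mark their median. In TAC, Cox6a2 at 7.92 lies below the bar of promoters without an island, and the other 9 genes lie within their bars in both libraries.

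Within each isoform pair, the general form had the higher H2A.Z signal, with 1 exception. Cox6a1 had 2.89 times the average of Cox6a2 in sham and 4.77 times in TAC. Cox7a2 had 2.74 times the average of Cox7a1 in sham and 2.24 times in TAC. Cox8a had 0.837 times the average of Cox8b in sham and 1.14 times in TAC, so that the order of this pair was not the same in the 2 libraries, although on the peak scale Cox8a was higher in both (1.57 and 2.39 times). Cox4i1 had 2.23 and 1.85 times the average of Cox4i2. The median of the 7 other genes was 2.21 times that of the muscle isoforms in sham and 1.80 times in TAC. The muscle median was the value of Cox7a1 in both libraries, the 1 muscle isoform with a higher average in TAC. On the peak scale the ratio of medians was 1.98 in sham and 2.63 in TAC, so the direction of this step depended on the scale. The ranges of the groups overlapped on the average scale through Cox4i2 in both libraries and Cox8b in sham.

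Between sham and TAC, the average H2A.Z signal differed most at the promoters without an island, and in both directions. The log2 ratio of the average signal, with 1 added to each value, was -0.62 at Cox6a2 and -0.38 at Cox8b, but 0.40 at Cox7a1 and 0.36 at Cox4i2. Peak signals gave -0.86, -0.47, 0.41 and 0.34, with the same signs, but the island gene Cox5b had 0.44 on that scale. Over all H2A.Z promoters the ratios of the average signal had an SD of 0.23 without an island and 0.14 with one. Cox6a2 was the only gene of the 10 past 1.5-fold (a log2 ratio of 0.585 either way), on the low side. Its region was called in sham only, so it was listed through the library where its signal was higher. In the same way Cox4i2, higher in TAC, was called in TAC only. Over all H2A.Z promoters 0.145% were lower and 0.436% higher by that fold, and 0.247% were lower on the peak scale. All 20 of the lower promoters lacked an island, 0.918% of the promoters without one. A pseudocount of 5 ended the call at Cox6a2. The next ratio in size was that of Cox7a1 (0.40), which did not reach the threshold.

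At the 6 island genes the H2A.Z ratios were small, from 0.02 at Cox5a to 0.14 at Cox7a2, beside a median of 0.04 and an SD of 0.16 over all promoters. All 6 were above 0 on the average scale, and 5 on the peak scale, where Cox7a2 turned to -0.04. The median peak ratio over all H2A.Z promoters was itself above 0, at 0.14. Cox7a2, Cox6a1 (0.01) and Cox8a (0.13) lay below that median. The largest peak ratio among them was 0.44 at Cox5b, where the peak was 101 in sham and 137 in TAC. In the ranking of all 13763 promoter ratios, Cox6a2 lay at percentile 0.12, Cox8b at 0.80, Cox4i2 at 96.0 and Cox7a1 at 97.3. Among promoters without an island, whose ratios had an SD of 0.23, these places were 0.76, 4.16, 91.0 and 93.6. With 1 library per operation, a difference between libraries and one between operations cannot be told apart.

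**Figure D4:**
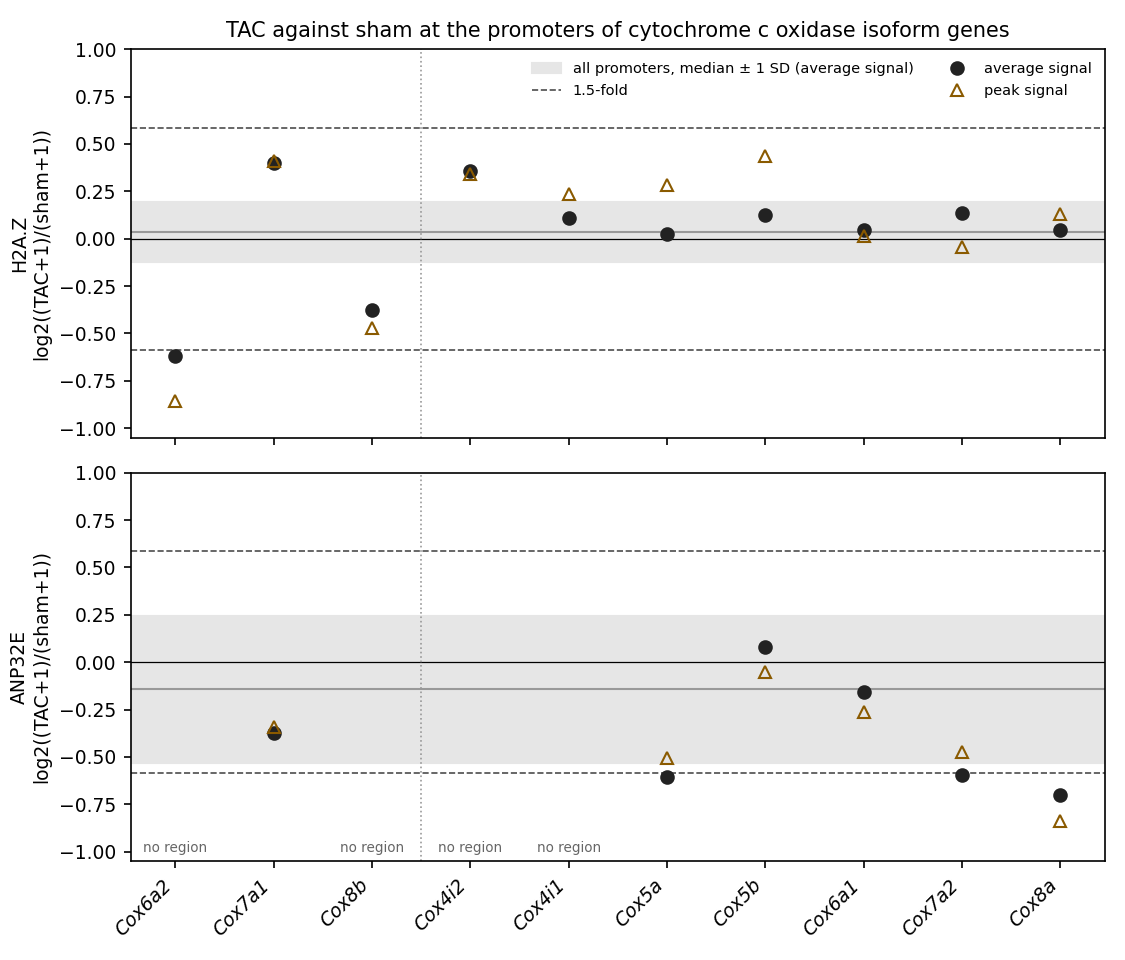
Log2 ratio of TAC to sham at each promoter for H2A.Z (top) and ANP32E (bottom), from average (filled circles) and peak signal (open triangles), with a pseudocount of 1; the grey band is the median ± 1 SD over all promoters and dashed lines mark 1.5-fold. Cox6a2 lies past the lower line for H2A.Z, and Cox5a, Cox7a2 and Cox8a lie past it for ANP32E on the average scale.

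ANP32E had a region at 6 of the 10 promoters, namely Cox7a1 and 5 of the island genes. By exact symbol, 21.7% of RefSeq protein-coding genes had one, and of all H2A.Z promoters 39.6% did. That share was 42.8% for H2A.Z promoters with an island and 22.3% for those without. No ANP32E region was listed for Cox6a2, Cox8b, Cox4i2 or Cox4i1, so these have no ANP32E value in either library. The nearest ANP32E regions lay 30172, 17382, 13771 and 47764 bp from their starts. Cox4i1 was thus the 1 island promoter of the set without ANP32E, although its H2A.Z peak was the highest in sham.

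The average ANP32E signal in sham was highest at Cox5a (14.3), at percentile 99.1 of all ANP32E promoters. The other 5 lay close together, with Cox6a1 at 10.2, Cox7a2 at 10.04, Cox8a at 10, Cox5b at 9.17 and Cox7a1 at 8.79. In TAC the order was Cox5b (9.74), Cox6a1 (9.06), Cox5a (9.04), Cox7a1 (6.55), Cox7a2 (6.31) and Cox8a (5.76). Peak signals in sham and TAC were 26 and 18 at Cox5a, 26 and 25 at Cox5b, 23 and 19 at Cox6a1, 18 and 14 at Cox7a1, 24 and 17 at Cox7a2, and 24 and 13 at Cox8a. The TAC peak was the lower one at all 6 genes, and the TAC average at all but Cox5b. The single muscle isoform with ANP32E was below its partner in sham, where Cox7a2 had 1.14 times its average, and slightly above it in TAC (0.964 times). On the peak scale it was below its partner in both, by 1.33 times in sham and 1.21 times in TAC.

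Of the 6 ANP32E promoters, 3 were lower in TAC by at least 1.5-fold and none higher. The log2 ratios were -0.70 at Cox8a, -0.61 at Cox5a and -0.59 at Cox7a2, the last just past the threshold. Cox7a1 (-0.37), Cox6a1 (-0.16) and Cox5b (0.08, or -0.05 on the peak scale) did not reach it. Over all ANP32E promoters 9.24% were lower and 4.31% higher by that fold. Relative to the median of all ANP32E regions, these ratios were -0.44 at Cox8a, -0.34 at Cox5a, -0.33 at Cox7a2, -0.11 at Cox7a1, 0.10 at Cox6a1 and 0.34 at Cox5b. On that scale none of the 6 passed the threshold, while 2.29% of all ANP32E promoters were lower by that fold. The median over ANP32E promoters alone was -0.14. Relative to it the ratios were -0.56 at Cox8a, -0.47 at Cox5a, -0.45 at Cox7a2, -0.23 at Cox7a1, -0.02 at Cox6a1 and 0.22 at Cox5b, so that the sign at Cox6a1 depended on the median used. None of the 6 passed the threshold there either, while 4.42% of all ANP32E promoters were lower by that fold. On the peak scale 1 did (Cox8a, -0.84), against 17.2%, and no gene did with a pseudocount of 5. An interval was called in sham only at 5 of the 6 (33.8% of all ANP32E promoters), and in both libraries at Cox5b. Those 5 include the 3 past 1.5-fold. They were listed through the sham library alone, which by itself favours a lower value in TAC.

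The merged regions of both proteins overlapped at each gene where both were listed. The ANP32E region lay wholly inside the H2A.Z region at 5 genes, and 92.4% of it did at Cox7a2. It took up 39.7% of the H2A.Z region at Cox7a1 and between 51.8% and 82.5% at the other 5. At Cox8a the H2A.Z average was 22.2 in sham and 23.0 in TAC beside ANP32E values of 10 and 5.76. At Cox5a these were 33.9 and 34.5 beside 14.3 and 9.04, and at Cox7a2 35.3 and 39.0 beside 10.04 and 6.31. At Cox6a1 they were 36.7 and 37.8 beside 10.2 and 9.06. Cox5b had 28.6 and 31.3 beside 9.17 and 9.74, with both averages higher in TAC. At Cox7a1 the H2A.Z average was the higher one in TAC (12.9 and 17.4) and the ANP32E average the lower one (8.79 and 6.55). Of these 6 ANP32E regions 5, all but that of Cox5b, were called in sham only. Over all ANP32E regions the median log2 ratio of TAC to sham was -0.26. At Cox6a2 and Cox8b, where the H2A.Z average was lower in TAC, no ANP32E region was listed. The same was true of Cox4i2 and Cox4i1, where the H2A.Z average was higher in TAC. An ANP32E promoter region was listed at 22.3% of all H2A.Z promoters without an island and 42.8% of those with one.

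Other complex IV genes gave few large H2A.Z differences, as did H2A.Z promoters in general. Of all H2A.Z promoters 0.145% were lower and 0.436% higher by 1.5-fold, and 53.1% of RefSeq protein-coding genes had an H2A.Z promoter region. Of 9 further subunit genes, 7 had an H2A.Z promoter region, 5 of them with an island, and none was past 1.5-fold. Their average signals in sham and TAC were 24.8 and 21.8 at Cox6b1, 13.9 and 13.5 at Cox6b2 (a testis form), 21.3 and 20.2 at Cox6c, 35.6 and 34.1 at Cox7a2l, 17.1 and 16.3 at Cox7b, 18.6 and 19.4 at Cox7c, and 31.3 and 34.4 at Ndufa4. Cox7b2 and Cox8c had none. Their median log2 ratio was -0.06, with 2 above 0, beside a median of 0.04 over all H2A.Z promoters. ANP32E was listed at Cox6b1 (7.93 and 6.81), Cox7a2l (10.2 and 8.36) and Ndufa4 (10.9 and 7.43), with all 3 averages lower in TAC and none past 1.5-fold. The ANP32E regions of Cox6b1 and Ndufa4 were called in sham only, and the median log2 ratio over all ANP32E promoters was -0.14. The Cox6b1 peak was the higher one in TAC, at 14 in sham and 16 in TAC.

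Of 26 assembly and expression factors of complex IV, 23 had an H2A.Z promoter region, 22 with an island, and none was past 1.5-fold (median log2 ratio 0.02). The highest ratios were at Sco1, a copper chaperone (0.22), and Cox16 (0.15), and the lowest at Higd2a (-0.19) and Coa7, listed under its older symbol Selrc1 (-0.15; 0.13 on the peak scale). ANP32E was listed at 15 of them with a median of -0.23, beside -0.14 over all ANP32E promoters, and 2 were lower by 1.5-fold, as were 9.24% of all ANP32E promoters. These were Cox17, a copper chaperone, with 11.8 in sham and 5.92 in TAC (-0.88), and Cox18, which inserts a core subunit into the inner membrane, with 12.9 and 6.65 (-0.86). Both were called in sham only. The highest ratios, both at regions called in TAC only, were at Cmc1 (0.18, or -0.39 on the peak scale) and Coa5 (0.17, or -0.27 on the peak scale).

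Other energy genes expressed in muscle, not all of them muscle isoforms, gave a range of promoter types. Of 10 listed genes 9 had an H2A.Z promoter region, of which 5 held an island. Of 10 genes related to them 8 had such a region, all with an island. Average H2A.Z was 16.8 in sham and 13.8 in TAC at Ckm, muscle creatine kinase, 16.3 and 12.9 at Ckmt2, its mitochondrial counterpart, and 12.8 and 10.2 at Pgam2, a glycolytic mutase, all without an island. The Pgam2 region was called in sham only. Pygm, muscle glycogen phosphorylase, lacked an island and had 19.0 and 20.0. With an island, it was 31.0 and 32.0 at Slc25a4, 47.8 and 45.03 at Eno3, 29.5 and 28.4 at Atp5g1, 14.3 and 18.2 at Fabp3, and 32.1 and 33.6 at Atp2a2. None of these was past 1.5-fold for H2A.Z, as was true of nearly all H2A.Z promoters. ANP32E was lower by 1.5-fold at Ckm (8.43 and 4.02) and Ckmt2 (8.25 and 3.63), both called in sham only. At 24.5% of the ANP32E promoters without an island ANP32E was lower by that fold. It was 9.92 and 7.13 at Pygm, 9.31 and 10.03 at Slc25a4, 9.36 and 11.4 at Eno3, 10.6 and 8.76 at Atp5g1 and 8.39 and 5.50 at Fabp3. The ANP32E regions of Pygm and Fabp3 were also called in sham only. At the related genes Ckb, Slc25a5, Pgam1, Eno1, Pygb, Atp5g3, Cygb and Atp2a3, average H2A.Z was 20.2 to 36.7 in sham. In TAC it was 19.2 to 36.0. Those of them with ANP32E (Slc25a5, Pgam1, Eno1 and Atp5g3) had ANP32E averages of 5.86 to 10.5 in sham and 5.43 to 9.40 in TAC.

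The promoters most like each muscle isoform were found by the root mean square difference of log2(average + 1) over the libraries of each table that listed it. For Cox6a2, over 2 libraries and 13763 promoters, these were Egf, Ankrd1 (a stretch-responsive sarcomeric protein) and 2310020H05Rik, at differences of 0.0447, 0.0449 and 0.0455, all without an island. For Cox8b, over the same 2 libraries, they were Hrasls, Erbb4 (a neuregulin receptor) and Bend3, at 0.0211, 0.0261 and 0.0397, all with an island. For Cox7a1, over 4 libraries and 5449 promoters, they were Kcna5 (a voltage-gated potassium channel), Slu7 (a splicing factor) and Fabp3 (the heart fatty acid-binding protein), at 0.0832, 0.125 and 0.136. Slu7 and Fabp3 held 1 and 2 islands in the H2A.Z region. H2A.Z at Kcna5, which lacked an island, was 14.5 in sham and 17.9 in TAC, and ANP32E was 9.02 and 6.76.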

How the data were processed

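ChIP-seq of H2A.Z and ANP32E was carried out by a service company on whole mouse hearts, per the labels' protocols. BWA, SICER and the genome build mm10 stand in the submitters' processing notes, with no versions. The deposited signal values (average and peak coverage per merged region) were used as given; the authors' scaling and their use of the input are not stated in the labels or headers. The depth behind a value is therefore unknown, and counting intervals could not be given. Per the file headers, marks state in which library an interval was called and how many CpG islands a region holds. Coordinates are those of the tables.

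Here, a gene's promoter was its nearest listed region, centred at most 1000 bp from the start or covering it. Ratios were log2((TAC + 1)/(sham + 1)) over the whole table, counted past 1.5-fold. This understates weak regions. With 1 library per group no test was possible. Members, lists and alternatives were chosen with earlier results of these data known. Named were the members and the genes whose own promoter was a region listed for a member. All further subunits with a region and the 2 highest and 2 lowest assembly factors were named as well. Also named were energy genes expressed in muscle and related genes with a region, and the 3 genes most like each muscle isoform. Alternatives covered pseudocount, peak signal, centring, fold, filter and promoter definition. The ratio step was tested on simulated data. Promoter sequences were from RefSeq (GRCm38.p6). Python 3.11.15, numpy 2.4.6, pandas 2.3.3 and matplotlib 3.10.9 were used.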

Additional observations from a re-analysis of the deposited data

How the results depend on the processing

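Peak signals and centring on the median of all regions or of all promoters, the last chosen after seeing the data, can turn the sign of a ratio. Over the 16 ratios of single genes they gave 48 values, of which 44 kept their sign. The 4 that turned were Cox7a2 H2A.Z (-0.04) and Cox5b ANP32E (-0.05) with peak signals, Cox6a1 ANP32E (0.10) relative to the median of all regions and Cox5a H2A.Z (-0.01) relative to that of all promoters. The count past 1.5-fold for H2A.Z, 1 in the report, was 0 with a pseudocount of 5, with a 2-fold threshold, in the stronger 50% of promoters and where a promoter had to be centred within 1000 bp. The setting on centring within 1000 bp, also chosen after seeing the data, removes Cox6a2, Cox8b and Cox4i2. For ANP32E the count of 3 became 0 with a pseudocount of 5, with ratios centred on either median and with a 2-fold threshold, and 1 with peak signals and in the stronger 50% of promoters. That filter left 4 genes with an H2A.Z and 3 with an ANP32E promoter, and only 1 gene had an ANP32E promoter called in TAC. The ratio of H2A.Z levels, other over muscle genes, was 2.21 in sham and 1.80 in TAC. It was 1.98 and 2.63 with peak signals, and 2.42 and 1.89 both without Cox4i2 and with centring within 1000 bp. For ANP32E, where Cox7a1 alone stands for the muscle isoforms, it was 1.14 and 1.38, or 1.33 and 1.29 with peak signals. The other counts stayed within 1.5 times under the alternatives run. No paired analysis was possible because each group held 1 library, and for the same reason no library could be left out.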

Other observations

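Regions listed for these genes away from their promoters were 8 for H2A.Z and 2 for ANP32E, and 5 and 2 of them were promoters of a neighbouring gene. At the shared promoter of Gatc and Triap1, downstream of Cox6a1, the H2A.Z average was 33.9 in sham and 33.4 in TAC and the ANP32E average 9.09 and 7.97. At Capns1, a calpain subunit gene downstream of Cox7a1, H2A.Z was 22.8 and 19.1 over a region of 12980 bp, and ANP32E was 8.27 and 9.23. H2A.Z was 30.3 and 33.5 at Otub1, 29.5 and 30.6 at Fam219b and 12.4 and 13.0 at Fam178b. The remaining 3 H2A.Z regions were the promoter of no listed gene. They lay 8516 bp upstream of Cox8b (23.9 in both libraries), 11738 bp downstream of the Cox4i2 start (18.6 and 19.5) and 16831 bp downstream of the Cox4i1 start (11.6 and 14.6). The first had a peak of 83 in sham and 86 in TAC, above the 53 and 38 at the Cox8b promoter. It held no CpG island.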
